A study of Homo sapiens with 4 samples.

Results

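The genes described here are 10 classical genes of the epithelial-mesenchymal transition (EMT): the epithelial adhesion genes CDH1 and EPCAM, the mesenchymal genes CDH2, VIM and FN1, and the transcription factors SNAI1, SNAI2, ZEB1, ZEB2 and TWIST1. They were taken by gene symbol from the 38137 genes of the count tables, and all 10 were listed. RNA came from xenografts of A549, a human lung adenocarcinoma cell line, grown in the flank of male BALB/c athymic nude mice that entered the study at 6 weeks of age. These hosts lack a thymus and so mature T cells, and every library holds 1 cell line in this 1 host strain. Tumors of the combination group received treadmill running at 8.0 m/min for 30 min followed on the same day by X-rays at 2 Gy, those of the radiation-alone group X-rays without running, those of the exercise-alone group running without X-rays, and those of the control group neither, with 3 sessions per week over 2 weeks in the treated groups. The study kept 5 mice per group. There is 1 library per group, and whether it came from 1 tumor or several is not given in the sources used here, so no comparison has a replicate or a p-value.

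In EMT, epithelial cells that are held to their neighbors by E-cadherin loosen these contacts and take on the shape, matrix and motility of mesenchymal cells. The SNAI, ZEB and TWIST factors bind E-box sequences and repress epithelial genes such as CDH1, while CDH2, VIM and FN1 are gained. The miR-200 family of microRNAs represses ZEB1 and ZEB2, which in turn repress the miR-200 genes. Carcinoma cells often hold genes of both states at once, and all 4 A549 libraries here held reads of both CDH1 and VIM.

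The libraries held 33432637 reads assigned to genes in the combination group, 35408705 in the radiation-alone group, 34304760 in the exercise-alone group and 34602535 in the control group. Values are CPM, read counts corrected for library size, after TMM scaling with a factor per library that lines up the bulk of the genes, and the factors ran from 0.980 to 1.03. Genes encoded in mitochondria took 6.34% to 7.60% of reads. Ratios between libraries carry a prior of 0.5 counts. Each fold is given with its exact (Clopper-Pearson) 95% interval computed from the reads, which covers counting error only and leaves out the spread between tumors. Genes with a mean of at least 20 reads over the 4 libraries were compared, which left 19393 genes and all 10 members. The 3 comparisons with control share its single library. Keratins and enzymes that mark A549 were abundant in all libraries, KRT8 with 110279 to 125804 reads, and CDKN2A, which A549 has lost, had 0 reads in each treated library and 1 in control.

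The mature microRNAs of the miR-200 family are shown because their seeds (bases 2 to 8, in capitals) define the sites searched for in ZEB1, ZEB2 and the other members. Sequences are from RefSeq (GRCh38.p14).
hsa-miR-200b-3p: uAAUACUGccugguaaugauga
hsa-miR-200c-3p: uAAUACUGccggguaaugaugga
hsa-miR-429: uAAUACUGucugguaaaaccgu
hsa-miR-200a-3p: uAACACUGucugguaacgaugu
hsa-miR-141-3p: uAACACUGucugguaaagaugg
The first 3 share one seed and the other 2 share another. Their genes lie in 2 clusters, MIR200B, MIR200A and MIR429 on chromosome 1 and MIR200C and MIR141 on chromosome 12. PolyA selection does not retain mature microRNAs, and the precursor genes had 0 to 4 reads in any library, too few to compare.

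Sites complementary to these seeds, CAGTATT and CAGTGTT in the strand of the transcript, were counted in the sequence after the stop codon of 1 GENCODE transcript per gene (GRCh38). ZEB1 held 9 sites, 6 of CAGTATT and 3 of CAGTGTT, in 2549 bases. ZEB2 also held 9, 5 of CAGTATT and 4 of CAGTGTT, in 5370 bases. FN1 held 2, SNAI2 held 1 and the other 6 members none. Of 19115 genes searched, 16.0% held CAGTATT at least once, 18.2% held CAGTGTT, and 0.0523% had 8 or more sites of the 2 together. A pair of sites from each gene is shown with the match in capitals.
ZEB1, chr10:31527619-31527640: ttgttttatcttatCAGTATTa
ZEB1, chr10:31528783-31528804: gagatttgatttaaCAGTGTTa
ZEB2, chr2:144388989-144389010: gcactacaatgcatCAGTATTa
ZEB2, chr2:144388710-144388731: gtgccatccttgtaCAGTGTTa
ZEB1 is on the plus strand and ZEB2 on the minus strand. A match describes the letters and does not show that a site is used in these tumors.

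For the 2 well-counted members with the widest range over the libraries, ZEB2 and CDH2, 1 promoter window each is shown. Beside them is 1 of the 7 windows of ZEB1, whose range was the smallest. Each is 300 bases, from 250 before to 50 after a RefSeq start site, with every E-box (CANNTG, which reads the same on both strands) in capitals.
ZEB2, chr2:144520070-144520369, minus strand: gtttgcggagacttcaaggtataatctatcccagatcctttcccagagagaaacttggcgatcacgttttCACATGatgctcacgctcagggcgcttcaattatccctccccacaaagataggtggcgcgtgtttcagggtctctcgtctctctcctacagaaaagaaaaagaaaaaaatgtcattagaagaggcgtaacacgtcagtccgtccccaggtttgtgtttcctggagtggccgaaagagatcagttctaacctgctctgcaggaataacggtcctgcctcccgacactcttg
CDH2, chr18:28177081-28177380, minus strand: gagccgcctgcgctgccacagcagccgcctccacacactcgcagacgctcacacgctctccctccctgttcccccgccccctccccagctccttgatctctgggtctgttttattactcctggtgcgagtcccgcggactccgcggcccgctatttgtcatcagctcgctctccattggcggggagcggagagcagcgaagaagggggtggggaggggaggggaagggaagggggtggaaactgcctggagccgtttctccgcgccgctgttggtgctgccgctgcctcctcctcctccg
ZEB1, chr10:31318966-31319265, plus strand: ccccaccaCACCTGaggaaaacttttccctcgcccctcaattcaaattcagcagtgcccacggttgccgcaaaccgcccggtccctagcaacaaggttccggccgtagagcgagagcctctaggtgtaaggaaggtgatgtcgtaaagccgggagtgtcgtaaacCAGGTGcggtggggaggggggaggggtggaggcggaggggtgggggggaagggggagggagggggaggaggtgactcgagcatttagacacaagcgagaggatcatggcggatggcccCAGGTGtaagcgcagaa
The ZEB1 window holds CACCTG at -242 and CAGGTG at -85 and 34 from the start, the form that ZEB and SNAI proteins bind, while the ZEB2 window holds only CACATG at -180 and the CDH2 window shown holds none. The ZEB1 window shown is the one with the most CAGGTG or CACCTG, and a second CDH2 window, not shown, holds CAGATG at -97. The difference between the windows shown thus rests on which were chosen. Over the 12 windows that matched 5 members, 7 of them of ZEB1, CAGGTG or its reverse complement CACCTG was in 2, both of ZEB1, and CANNTG in 6. Over all 35116 windows the shares were 20.6% and 68.7%.

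CDH1 (chromosome 16, 68737292 to 68835537) encodes E-cadherin, the adhesion protein of epithelial junctions, and its level stayed within a narrow band. It had 6049 reads in the combination group, 6053 in the radiation-alone group, 5521 in the exercise-alone group and 5954 in control, or 184.7, 174.1, 159.8 and 166.7 CPM. All 4 values lay within 0.21 on the log2 scale. Against control the fold was 1.11 in the combination group (95% interval 1.07 to 1.15) and 0.958 in the exercise-alone group (0.924 to 0.994). The fold of the radiation-alone group against control was 1.04 (1.01 to 1.08), and its log2 ratio of 0.06 became -0.01 with total-count scaling. The combination group stood 1.16-fold above the exercise-alone group (1.11 to 1.20) and 1.06-fold above the radiation-alone group (1.02 to 1.1).

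EPCAM (chromosome 2, 47369311 to 47387020), a surface adhesion protein of epithelial cells, was highest in the exercise-alone group and lowest in the radiation-alone group. It had 885 reads (27.0 CPM) in the combination group, 772 (22.2 CPM) in the radiation-alone group, 1107 (32.0 CPM) in the exercise-alone group and 986 (27.6 CPM) in control. Radiation alone gave 0.804 of the control level (0.731 to 0.884) and exercise alone 1.16 times it (1.06 to 1.27). The combination group lay close to control at 0.979 (0.893 to 1.07), and was 1.22-fold higher than the radiation-alone group (1.1 to 1.34). The 2 epithelial adhesion genes thus stood on opposite sides of control in both single-treatment groups, with the scaling named above as the exception for CDH1 after radiation.

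CDH2 (chromosome 18, 27932879 to 28177130) encodes N-cadherin, the cadherin that mesenchymal cells carry in place of E-cadherin. Its exercise-alone library stood apart from the other 3. CDH2 had 1521 reads (46.4 CPM) in the combination group, 1521 (43.7 CPM) in the radiation-alone group, 2514 (72.8 CPM) in the exercise-alone group and 1778 (49.8 CPM) in control. Exercise alone was 1.46-fold above control (1.37 to 1.55), while radiation alone was at 0.878 of control (0.820 to 0.941) and the combination at 0.933 (0.870 to 0.999). The combination group was at 0.638 of the exercise-alone group (0.599 to 0.681). Against the radiation-alone group its fold was 1.06, with an interval of 0.988 to 1.14 that holds 1. Exercise thus went with a log2 difference of 0.09 among irradiated tumors and of 0.55 among unirradiated ones, a gap of -0.46 between the 2 (counting interval -0.60 to -0.33).

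The ratio of CDH2 to CDH1 reads within a library needs no scaling between libraries, and it gave the same picture. It was 0.251 in the combination group (0.238 to 0.266), 0.251 in the radiation-alone group (0.238 to 0.266), 0.455 in the exercise-alone group (0.434 to 0.477) and 0.299 in control (0.283 to 0.315). The exercise-alone ratio was 1.52 times that of control (1.42 to 1.64), and the combination ratio 0.552 times that of the exercise-alone group (0.513 to 0.594). Between the combination and radiation-alone groups the factor was 1.0 (0.924 to 1.08), so the cadherin ratio of irradiated tumors did not differ with exercise beyond counting error. Intervals of these ratios are on the log scale (Woolf).

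**Figure D1:**
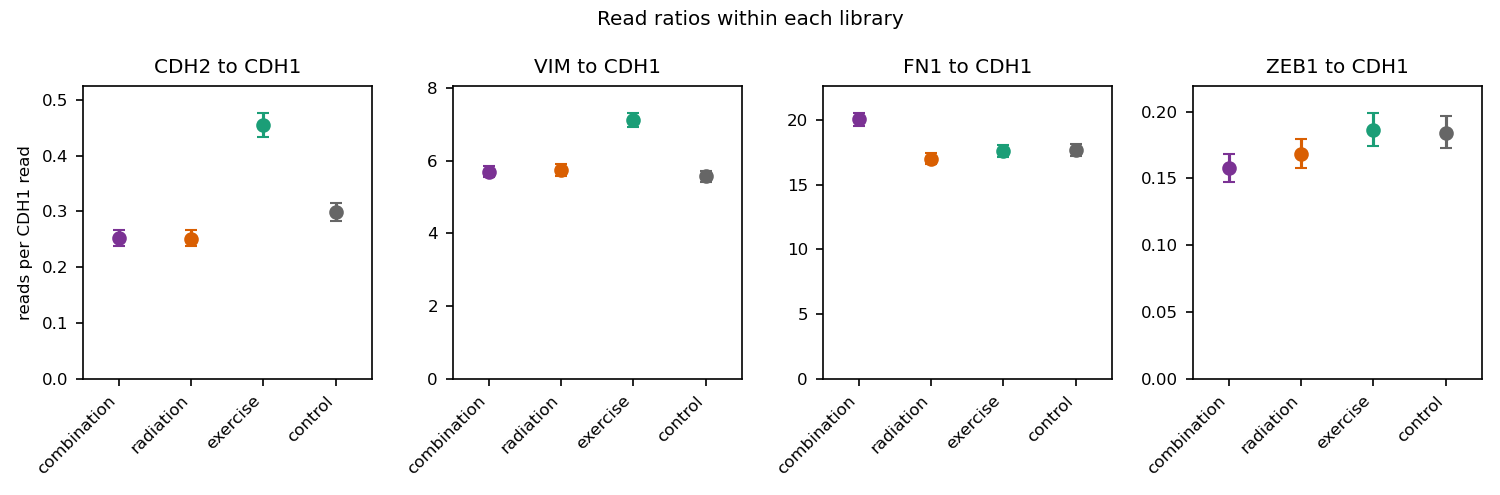
Reads of CDH2, VIM, FN1 and ZEB1 per read of CDH1 (y axis, a ratio without unit, starting at 0) in the combination, radiation, exercise and control libraries (x axis); each point is 1 library and each bar its 95% counting interval. The exercise library stands alone for CDH2 at 0.455 and for VIM at 7.12, and the combination library for FN1 at 20.1.

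VIM (chromosome 10, 17228241 to 17237593) encodes vimentin, the intermediate filament of mesenchymal cells, and was lowest in control. It had 34455 reads (1052 CPM) in the combination group, 34786 (1000.3 CPM) in the radiation-alone group, 39327 (1138 CPM) in the exercise-alone group and 33171 (929 CPM) in control. The fold against control was 1.23 with exercise alone (1.21 to 1.24), 1.13 in the combination (1.12 to 1.15) and 1.08 with radiation alone (1.06 to 1.09). Per CDH1 read, VIM was 1.28 times the control value in the exercise-alone group (1.23 to 1.33), 1.02 times in the combination (0.983 to 1.06) and 1.03 times with radiation alone (0.992 to 1.07), so that only the exercise-alone interval did not hold 1. VIM-AS1, on the opposite strand over 1745 bases of VIM, had 37.8% to 43.2% as many reads as VIM. The strand setting of the counting is not given in the sources used here, and reads of the pair cannot be told apart.

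FN1 (chromosome 2, 215360865 to 215436068) encodes fibronectin, a matrix protein that mesenchymal cells secrete, and was the most heavily counted member. It had 121367 reads (3706 CPM) in the combination group, 103099 (2965 CPM) in the radiation-alone group, 97213 (2814 CPM) in the exercise-alone group and 105305 (2949 CPM) in control. The combination stood above the other 3, by 1.26-fold against control (1.25 to 1.27), 1.25-fold against radiation alone (1.24 to 1.26) and 1.32-fold against exercise alone (1.31 to 1.33). Exercise alone was slightly below control at 0.954 (0.946 to 0.962), and radiation alone was at 1.01 (0.997 to 1.01). Per CDH1 read, FN1 was 1.18 times as high in the combination as in the radiation-alone group (1.14 to 1.22) and 1.13 times as high as in control (1.09 to 1.18). FN1 and CDH2 therefore had their highest values in different groups, the combination for FN1 and exercise alone for CDH2.

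**Figure D2:**
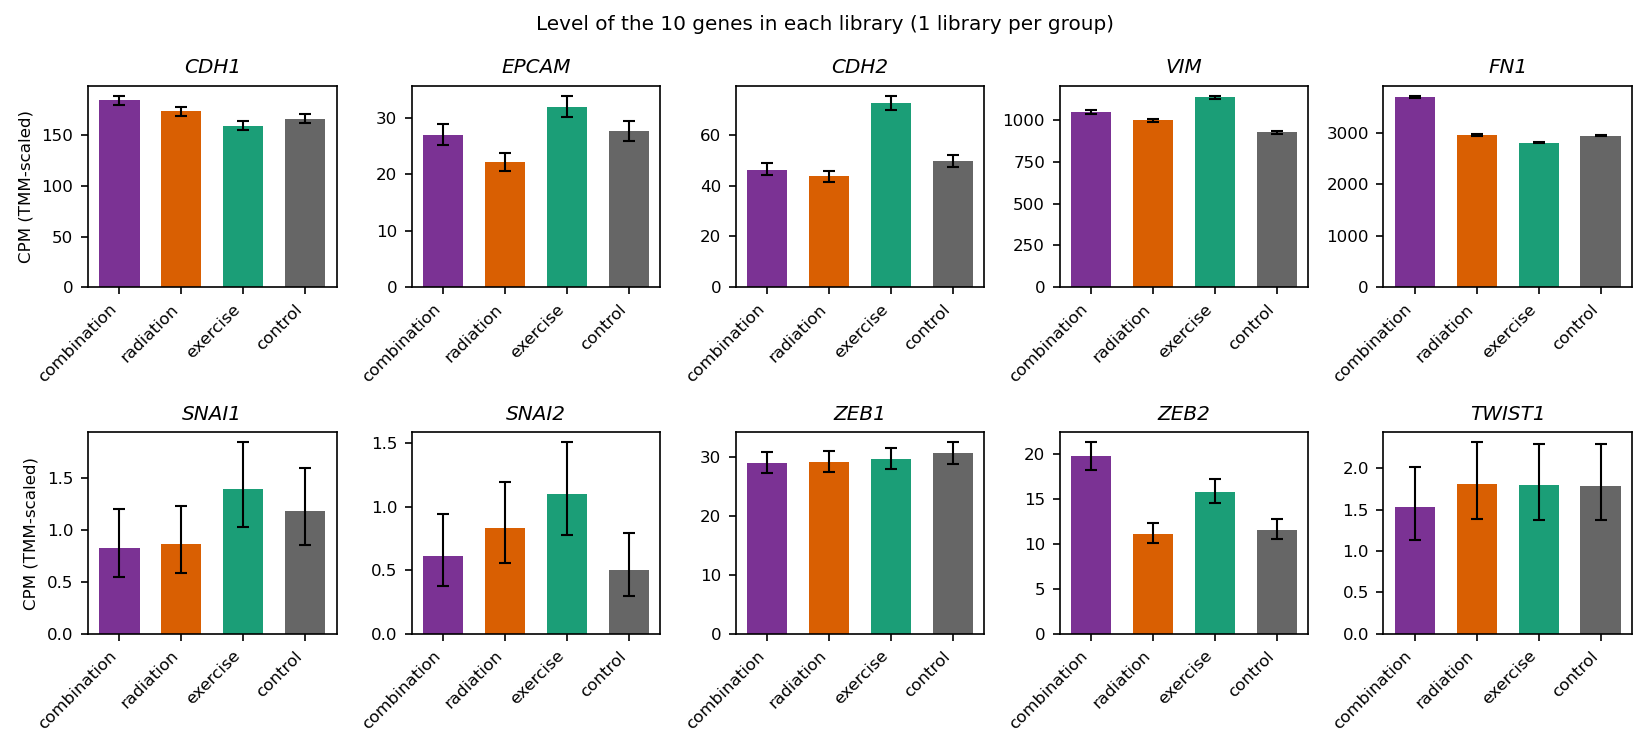
Level of the 10 members in TMM-scaled CPM (y axis, 1 scale per gene, starting at 0) in the combination, radiation, exercise and control libraries (x axis); each bar is 1 library and each error bar the 95% Poisson interval of its reads. ZEB2 is highest in the combination at 19.7 CPM, CDH2 in the exercise library at 72.8 CPM, and the 4 ZEB1 bars are nearly level at 29.1 to 30.7 CPM.

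Among the transcription factors, ZEB2 (chromosome 2, 144384081 to 144520119), a zinc finger repressor of E-cadherin, showed the largest differences that rested on more than 100 reads. It had 646 reads (19.7 CPM) in the combination group, 387 (11.1 CPM) in the radiation-alone group, 545 (15.8 CPM) in the exercise-alone group and 413 (11.6 CPM) in control. Both exercised libraries lay above both sedentary ones, and the gap between the lower exercised and the higher sedentary library was 0.45 on the log2 scale. The combination was 1.70-fold above control (1.5 to 1.93) and 1.77-fold above radiation alone (1.56 to 2.02). Exercise alone was 1.36-fold above control (1.20 to 1.55), and radiation alone, at 0.962, had an interval that holds 1 (0.835 to 1.11). The log2 difference with exercise was larger among irradiated than among unirradiated tumors by 0.38 (counting interval 0.12 to 0.64). ZEB2 stayed under the 2-fold threshold in all 5 comparisons.

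ZEB2 is also expressed by macrophages, and genes used as markers of these cells differed in several directions. In this list of 12 genes, which includes neutrophil genes, 7 could be compared. Of these, 3 (CD14, CD68 and LYZ) passed 2-fold upward in the combination against control, beside 2.27% of all genes compared. CSF1R, the receptor of a macrophage growth factor and the most heavily counted of the list, was at 0.901 of control there (0.875 to 0.928), and both ITGAM at 0.871 (0.720 to 1.05) and ADGRE1 at 1.16 (0.884 to 1.53) had intervals that hold 1. The 12 genes summed to 499.8 CPM in the combination group, 435 in the radiation-alone group, 368 in the exercise-alone group and 377 in control. MRC1, a receptor of tissue macrophages, had 30, 14, 4 and 6 reads in that order of groups, and C1QA, C1QB and S100A8 had 0 in every library. The sum, of which CSF1R made up 250.6 CPM in the combination group, was higher with radiation alone than with exercise alone, unlike ZEB2. ADGRE1 was the only compared gene of this list with the order of groups of ZEB2. It had 3.45 CPM in the combination group, 2.36 in the radiation-alone group, 3.44 in the exercise-alone group and 2.97 in control. Its combination and exercise-alone values were nearly tied, on 113 against 119 reads. The interval of that fold holds 1 (0.768 to 1.31), so the order of these groups is not clear of counting error. Because reads were matched to human genes alone, a read of the host and a read of the tumor cannot be told apart, and the part of host reads in ZEB2 was not tested. As in any bulk sample, fewer cells of a type and less RNA per cell cannot be told apart either.

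ZEB2-AS1, which overlaps the start of ZEB2 by 506 bases on the other strand, had 34 reads in the combination group, 20 in the radiation-alone group, 18 in the exercise-alone group and 12 in control, 2.91% to 5.26% of the ZEB2 reads. It was 3.0-fold higher in the combination than in control, on few reads.

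ZEB1 (chromosome 10, 31318417 to 31529804), the other ZEB repressor, was the steadiest of the 10. It had 952 reads (29.1 CPM) in the combination group, 1018 (29.3 CPM) in the radiation-alone group, 1029 (29.8 CPM) in the exercise-alone group and 1097 (30.7 CPM) in control. All 5 folds had intervals that hold 1, and over the 5 comparisons no interval reached below 0.867 or above 1.09. ZEB1 and ZEB2, which carry the same number of miR-200 seed sites in the sequences searched above, had different profiles over the 4 groups. Whether these sites bear on the levels was not tested. ZEB1-AS1, on the strand opposite to the start of ZEB1, had 228 to 257 reads, which cannot be told apart from those of ZEB1 where the 2 overlap.

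SNAI2 encodes Slug, a repressor of E-cadherin best known from the neural crest, and was the single member at 2-fold in any comparison. It had 20 reads (0.611 CPM) in the combination group, 29 (0.834 CPM) in the radiation-alone group, 38 (1.1 CPM) in the exercise-alone group and 18 (0.504 CPM) in control. Exercise alone was 2.15-fold above control, with a wide interval of 1.21 to 4.06. The combination was at 0.561 of the exercise-alone group (0.306 to 0.979). Radiation alone against control gave 1.64 (0.888 to 3.16) and the combination against control 1.21 (0.608 to 2.43), and both intervals hold 1.

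SNAI1 (chromosome 20, 49982980 to 49988886) encodes Snail, which represses CDH1 directly. It had 27 reads (0.824 CPM) in the combination group, 30 (0.863 CPM) in the radiation-alone group, 48 (1.39 CPM) in the exercise-alone group and 42 (1.18 CPM) in control. Both irradiated libraries were below both unirradiated ones, yet against control neither single fold was clear of counting error, at 0.705 for the combination (0.416 to 1.16) and 0.737 for radiation alone (0.443 to 1.20). The combination was at 0.598 of the exercise-alone group (0.356 to 0.970).

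TWIST1 (chromosome 7, 19113047 to 19117636), a basic helix-loop-helix factor of mesoderm and of metastasis, had 50 reads (1.53 CPM) in the combination group, 63 (1.81 CPM) in the radiation-alone group, 62 (1.79 CPM) in the exercise-alone group and 64 (1.79 CPM) in control. Its fold against control was 0.853 in the combination (0.576 to 1.25), 1.01 with radiation alone (0.702 to 1.45) and 1.0 with exercise alone (0.694 to 1.44). No difference in TWIST1 was detectable at this depth, and the intervals do not hold changes of 2-fold.

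**Figure D3:**
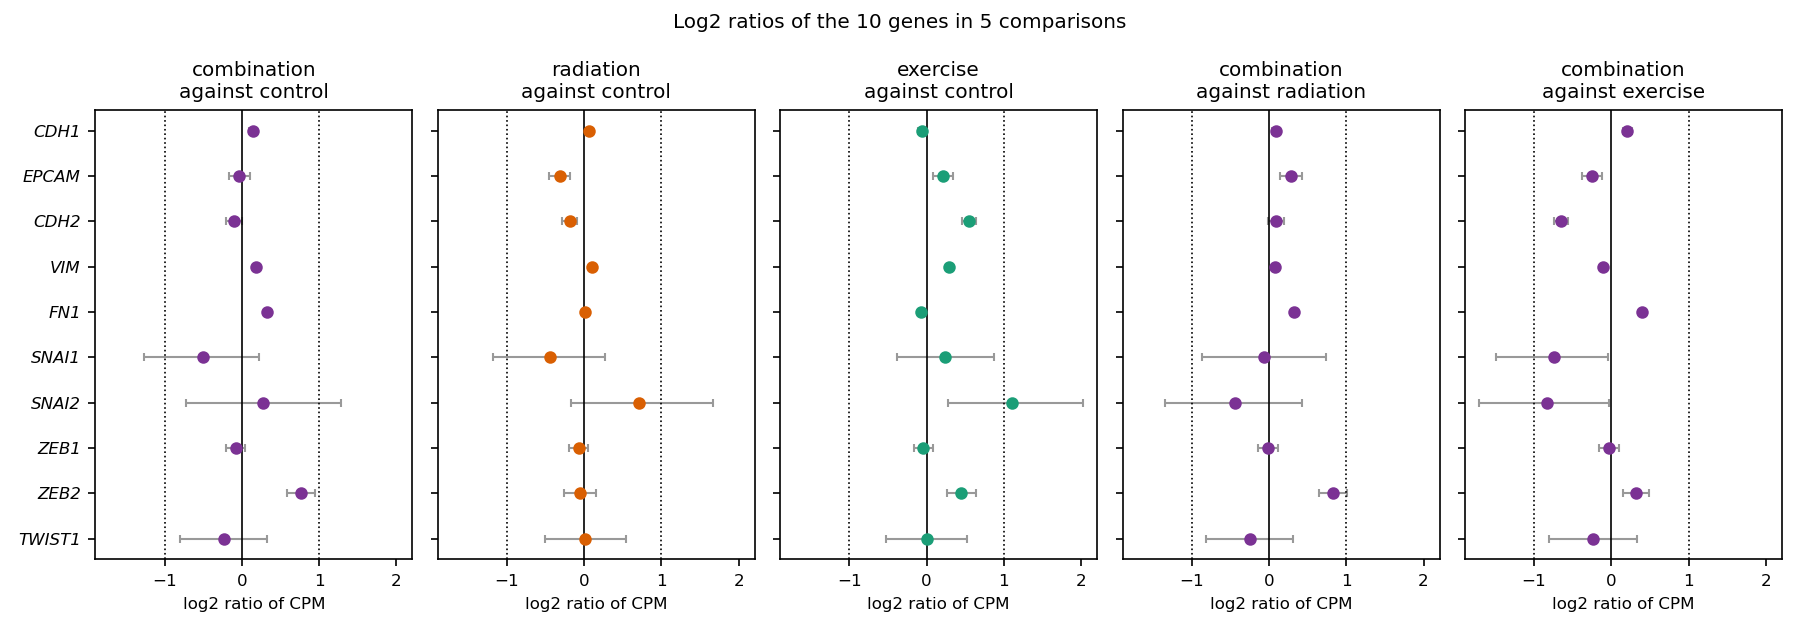
Log2 ratio of CPM (x axis) of the 10 members (y axis) in the 5 comparisons (panels); points are ratios of 1 library to 1 library, bars are 95% counting intervals, and dotted lines mark 2-fold. SNAI2 with exercise alone is the only point past a dotted line, the ZEB2 points are at 1.70-fold and 1.77-fold in the comparisons of the combination with control and with radiation, and small ratios such as those of CDH1, FN1 and TWIST1 after radiation change sign with total-count scaling.

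At the 2-fold threshold 1 member was called in 1 of the 5 comparisons, and with 10 genes these counts are too small to set the members apart from other genes or to equate them. In the exercise-alone group 1 of 10 was at least 2-fold higher than in control and 0 lower, where 0.83% of all genes compared were higher and 0.701% lower. For the combination against control 0 of 10 were higher or lower, where 2.27% of genes were higher and 1.77% lower. Radiation alone against control also gave 0 of 10, beside 1.89% and 0.897% of genes, and so did the combination against radiation alone, beside 0.418% and 0.887%. The combination against exercise alone gave 0 of 10 as well, where 2.92% of genes were higher and 3.06% lower.

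With the weaker criterion of a counting interval that does not hold 1, members were called at shares near those of all genes in some comparisons and above them in others. In the combination against control 5 of 10 were called (CDH1, VIM, FN1 and ZEB2 higher, CDH2 lower), where 52.3% of genes were. Radiation alone against control gave 4 of 10 beside 46.9% of genes, and the combination against radiation alone gave 5 of 10, all higher, beside 41.1%. Exercise alone against control gave 7 of 10 beside 38.1%, with EPCAM, CDH2, VIM, SNAI2 and ZEB2 higher and CDH1 and FN1 lower. The combination against exercise alone gave 8 of 10 beside 55.6%, with CDH1, FN1 and ZEB2 higher and EPCAM, CDH2, VIM, SNAI1 and SNAI2 lower. This criterion follows depth, and VIM and FN1 have far more reads than most genes. The median log2 ratio of the members was 0.23 in exercise alone against control, where that of all genes was 0.0016. For the combination against exercise alone it was -0.17, where that of all genes was -0.016, and it was -0.0349 over the members with a mean of at least 100 reads. The other medians were 0.06 for the combination against control, which became -0.02 with total-count scaling, -0.02 for radiation alone against control and 0.08 for the combination against radiation alone, where those of all genes were -0.015, 0.0007 and 0.0009.

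Over the 2 irradiated and the 2 unirradiated libraries, EPCAM, CDH2, SNAI1 and ZEB1 were lower in both irradiated ones under all 6 scalings tried, 4 of 10 where 27.6% of all genes were lower. The gap was only -0.0248 on the log2 scale for ZEB1 and -0.0312 for EPCAM. Intervals that hold 1 were those of every ZEB1 fold, of EPCAM in the combination against control, and of SNAI1 in both irradiated groups against control. CDH1 and FN1 were higher in both irradiated libraries with TMM, 2 of 10 where 26.2% of genes were, but neither was with total-count scaling, and the FN1 gap was only 0.0076 on the log2 scale. Over the 2 exercised and the 2 sedentary libraries, VIM and ZEB2 were higher in both exercised ones under all 6 scalings, 2 of 10 where 11.6% of genes were. None was lower in both with TMM, where 13.2% of genes were, and TWIST1 was with upper-quartile factors. The shares of all genes were counted with TMM alone, not under all 6 scalings. With TMM alone EPCAM, CDH2, SNAI1 and ZEB1 were again the members lower in both irradiated libraries. VIM and ZEB2 were again those higher in both exercised ones. These shares are a description of 4 libraries and were not tested.

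Levels of different members were compared per kilobase of exon, averaged over the 4 libraries. VIM was highest at 551 CPM per kb and FN1 next at 342, followed by CDH1 at 34.4, EPCAM at 13.5, CDH2 at 11.96, ZEB1 at 4.62, ZEB2 at 1.09, TWIST1 at 1.04, SNAI1 at 0.631 and SNAI2 at 0.314. The ranges over the libraries overlapped for EPCAM (11.04 to 15.94) and CDH2 (9.83 to 16.4), and for ZEB2 (0.833 to 1.48) and TWIST1 (0.916 to 1.09), while other neighbors in this order did not overlap. The 2 filament and matrix genes thus stood above both epithelial adhesion genes in every group, in tumors that carried abundant KRT8 and KRT18. The length implied by the deposited FPKM is the whole gene span with introns, and if reads were counted over that span the per-exon levels of genes with long introns are too high. Per kilobase of gene span the first 4 places were the same, and ZEB1 and ZEB2 came last at 0.141 and 0.107.

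Among genes with a mean of at least 100 reads, the 3 whose log2 profile over the 4 libraries was nearest to that of ZEB2 were MAF, JUNB and JUN, with root-mean-square differences of 0.0965, 0.102 and 0.104. MAF is a basic leucine zipper factor, and JUN and JUNB are subunits of AP-1 that respond early to stimuli. JUNB had 6755 reads in the combination group, 4435 in the radiation-alone group, 6461 in the exercise-alone group and 5261 in control. Nearest to CDH2 were PLAU at 0.0122, C10orf55 at 0.0216 and KPNA2 at 0.0263. PLAU, the urokinase protease that degrades matrix, had 1616, 1618, 2701 and 1929 reads in that order of groups. C10orf55 overlaps PLAU on the other strand with 99.1% to 102.7% as many reads, so these 2 are not separate observations, and KPNA2 encodes a nuclear import receptor. The profiles cover 4 libraries and 15385 genes searched.

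Genes that work with the members were read from 10 lists. Junction genes of epithelial cells, such as claudins, desmosome proteins and ZO proteins, showed no member at 2-fold among 22 in any comparison. Their medians ran from -0.01 for radiation alone against control to 0.07 for exercise alone against control. In the exercise-alone group CLDN4, a claudin of tight junctions, had the highest log2 ratio at 0.74 and OCLN, occludin, the lowest at -0.30. The 6 catenin genes, which link cadherins to actin, and 13 of 17 epithelial regulators with enough reads also had none at 2-fold. Beside those shares, lists this small are not set apart from other genes by having none. In the combination against control, ELF3, an epithelial ETS factor, had a log2 ratio of 0.54 and ESRP1, a splicing factor of epithelial cells, of -0.61.

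Of 15 other cadherins, 11 could be compared, and they did not share a direction. CDH26 (10 reads against 37) and CDH13 (20 against 46) were at least 2-fold lower in the combination than in control, beside 1.77% of all genes compared. CDH19, a cadherin of Schwann cells, had 80 reads in the combination group, 69 in the radiation-alone group, 335 in the exercise-alone group and 174 in control. CDH4, R-cadherin, had 168, 258, 535 and 292 reads in that order. Like CDH2, these genes had their highest value in the exercise-alone group, and both were at least 2-fold lower in the combination than there. CDH16, a kidney cadherin, was 3.36-fold higher in the combination than with exercise alone, with 68 reads against 21.

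The list of mesenchymal cytoskeleton and matrix genes, with 22 of 23 compared, had a median log2 ratio of 0.45 in exercise alone against control, where 18 of the 22 were above 0. The median of all genes compared was 0.0016 there. COL5A1, a fibrillar collagen chain, was 2.04-fold higher there, with 2871 reads in the combination group, 3098 in the radiation-alone group, 6471 in the exercise-alone group and 3277 in control. POSTN, periostin, a matrix protein that the fibroblast list also holds, was at least 2-fold lower in the combination than in control on 17 against 41 reads. Medians of the list were 0.19 for the combination against control, 0.02 for radiation alone against control, which became -0.05 with total-count scaling, 0.18 for the combination against radiation alone and -0.08 for the combination against exercise alone.

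Other transcription factors of EMT, with 16 of 17 compared, had medians of -0.25 in the combination and -0.30 with radiation alone against control, and of 0.09 with exercise alone. TWIST2 was at least 2-fold lower in the combination than in control, with 189 reads in the combination group, 280 in the radiation-alone group, 393 in the exercise-alone group and 516 in control. FOXC2, a forkhead factor of mesenchyme, was 2.65-fold higher with exercise alone than in control, with 65 reads against 25. HMGA2, a chromatin protein of embryonic and tumor cells, had 698, 760, 2086 and 1502 reads in the order given for TWIST2. With FOXQ1, PRRX1 and FOXC2 it was at least 2-fold lower in the combination than with exercise alone, beside 3.06% of all genes compared. TWIST2, HMGA2 and FOXQ1 each lay lower in both irradiated libraries than in both unirradiated ones. Most of the other factors compared in this list had the same order, which 27.6% of all genes compared also had, while SOX9 was higher in both irradiated libraries.

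Of 17 corepressors and stability factors, such as the histone deacetylases that SNAI and ZEB proteins recruit, EZH2, a histone methyltransferase, was at least 2-fold lower in the combination than with exercise alone (492 against 1163 reads), and no other member was at 2-fold in any comparison. Of 10 integrins and other receptors of fibronectin and E-cadherin, ITGB6 was 2.01-fold higher with exercise alone than in control (812 against 418 reads) and at least 2-fold lower in the combination than with exercise alone. MIR34AHG, the host gene of miR-34a, which targets SNAI1, was 2.5-fold higher in the combination and 2.09-fold higher with radiation alone than in control, with 1511 reads in the combination group, 1342 in the radiation-alone group, 670 in the exercise-alone group and 658 in control. It is a target of p53.

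**Figure D4:**
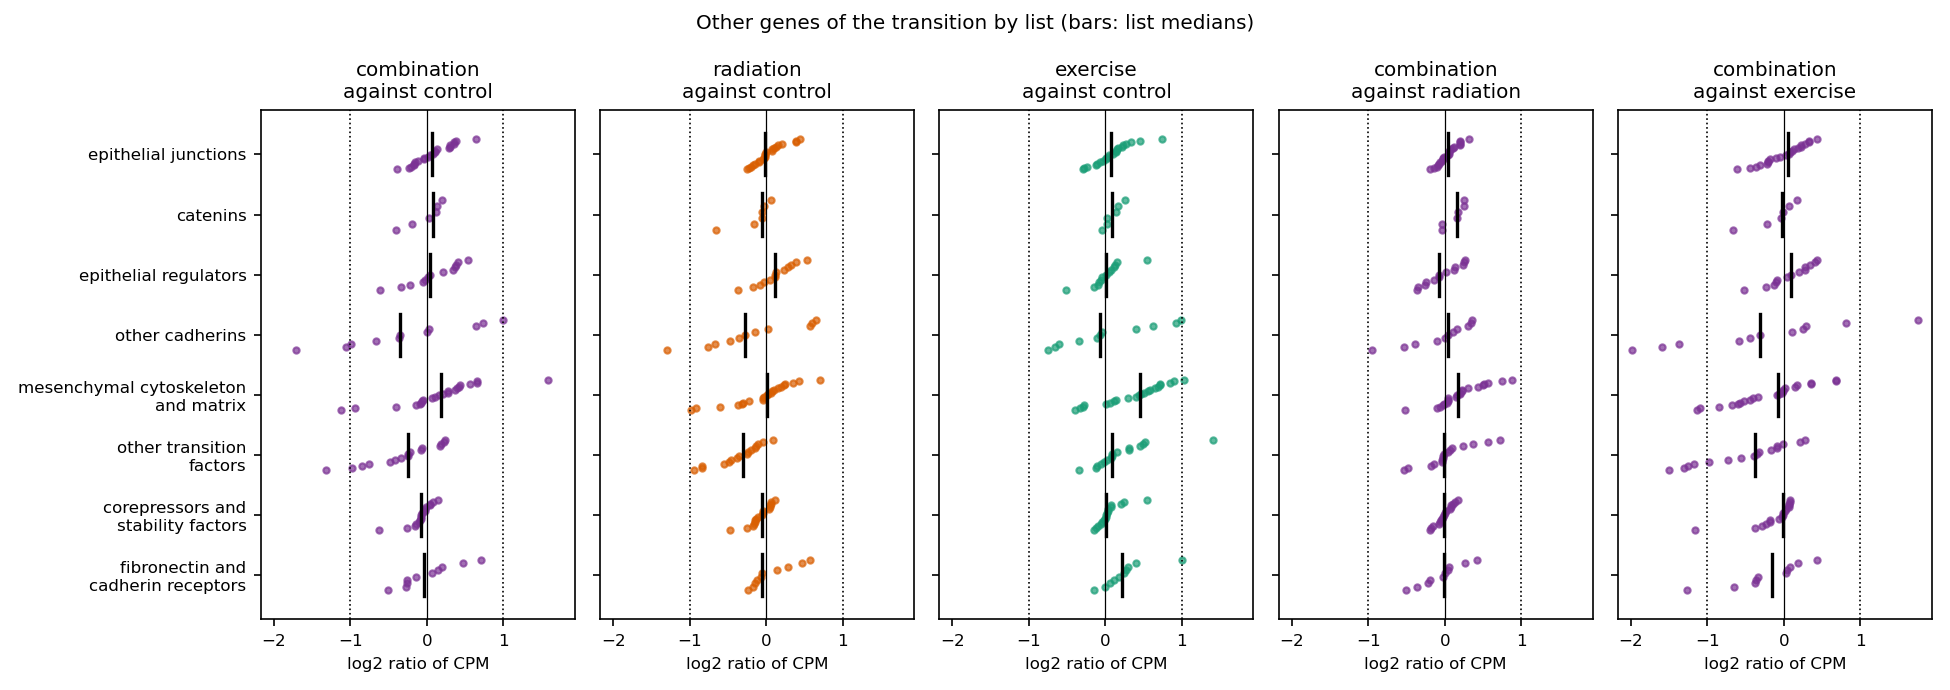
Log2 ratio of CPM (x axis) for the genes of 8 lists that work with the members (y axis) in the 5 comparisons (panels); each point is 1 gene, black bars are list medians and dotted lines mark 2-fold. Medians lie near 0 for epithelial junctions in every panel, at 0.45 for mesenchymal cytoskeleton and matrix genes with exercise alone, and at -0.25 and -0.30 for other transition factors in the combination and with radiation alone.

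Genes that mark fibroblasts were mostly lower in the combination than in control, where VIM and FN1 were higher. Of 12 such genes 10 were compared, and 5 were at least 2-fold lower in the combination than in control, beside 1.77% of all genes compared. The median log2 ratio of the list was -0.92 there, -0.64 for radiation alone against control and 0.0003 for exercise alone. With exercise alone, where VIM was highest, 5 of the 10 were above control. Among these were LUM at 1.55-fold (1.41 to 1.72) and FAP at 2.04-fold on 34 against 17 reads. The other 5 were below control, among them PDGFRA at 0.711 (0.552 to 0.911) and COL3A1 at 0.854 (0.792 to 0.921). The list summed to 208 CPM in the combination group, 253 in the radiation-alone group, 379 in the exercise-alone group and 372 in control. THY1, a surface marker of fibroblasts, had 0 to 3 reads. Skeletal muscle genes summed to 54.0, 41.4, 7.64 and 6.27 CPM in the same order. Of 9 compared, 8 were at least 2-fold higher in the combination than in control, beside 2.27% of all genes compared. Of 13 endothelial genes 3 were compared, and PECAM1 was at least 2-fold lower in the combination than in control (181 against 655 reads). KRT5 and KRT14, keratins of basal cells, were at least 2-fold lower in both irradiated groups than in control, KRT5 in the combination only just so, at 0.497 on 18 against 40 reads, and under 2-fold there with median-of-ratios factors. The third keratinocyte gene compared, KRT10, was 1.11-fold higher in the combination than in control (1.03 to 1.21). The part of host cells in the values of the members was not tested.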

How the data were processed

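The authors trimmed reads of polyA-selected stranded libraries (cutadapt, per the submitters' processing notes), aligned them to GRCh38 with Bowtie2 2.3.4.1 (an aligner that does not split reads over introns), and counted them per gene with featureCounts 1.6.0. The deposited read counts are not normalized. The deposited FPKM values imply the whole gene span as length. The sources used here do not give the strand setting, how mouse reads were handled or whether tumors were pooled.

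Counts were scaled by TMM factors (edgeR 4.0.16, R 4.3.3) from genes with a mean of at least 20 reads. Members, gene lists and rules were chosen with earlier results of these data known. Named genes were the 10 members, list members at 2-fold or otherwise the 2 highest and 2 lowest, of which examples are given and 1 is not reported here, and the 3 genes nearest in profile to the 2 widest-ranging members. Marker lists covered 5 host cell types and A549. The calling step was tested on simulated data. Alternatives were median-of-ratios (DESeq2 1.42.0), upper-quartile and total-count scaling, the last also without mitochondrially encoded genes, priors of 2 and 0.1 counts, no minimum and a minimum of 100, a 1.5-fold threshold, and FPKM with 0.1 added. TMM factors from all genes were added after seeing the data. Scripts used matplotlib 3.10.9, scipy 1.17.1, pandas 2.3.3 and numpy 2.4.6 under Python 3.11.15. Sequences and coordinates are from RefSeq (GRCh38.p14) and GENCODE tables of this build.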

Additional observations from a re-analysis of the deposited data

Results flagged for a closer look

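The members CDH1, FN1 and VIM had ratios of opposite sign under the same contrast in the presence and absence of the other treatment. They are the members for which neither counting interval of the pair holds 0. Each ratio is from 1 library against 1 library, so the difference was not tested. For CDH1, exercise gave a log2 ratio of 0.0857 among irradiated tumors (combination against radiation alone) and of -0.0615 among unirradiated ones (exercise alone against control). For FN1, exercise gave 0.322 among irradiated tumors and -0.0679 among unirradiated ones. For VIM, radiation gave -0.1135 among exercised tumors (combination against exercise alone) and 0.1067 among sedentary ones (radiation alone against control). The counting intervals of these 6 ratios do not hold 0, and they leave out the spread between tumors. SNAI1, SNAI2, ZEB2 and TWIST1 also turned sign in a contrast, with at least 1 interval of the pair holding 0. The widest such gap was that of SNAI2, where exercise gave -0.4404 among irradiated tumors and 1.1034 among unirradiated ones. Its difference was -1.54 (counting interval -2.70 to -0.39), on 18 to 38 reads a library.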

How the results depend on the processing

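With 1 library per group no library could be left out and no spread between tumors was measured, and SNAI1, SNAI2 and TWIST1 rest on 18 to 64 reads a library. No paired analysis was possible because each group has 1 library. At a 1.5-fold threshold 1 member was higher in the combination than in control (ZEB2), 1 with radiation alone than in control (SNAI2) and 1 in the combination than with radiation alone (ZEB2), and 3 were lower in the combination than with exercise alone (CDH2, SNAI1 and SNAI2). The share of all genes at 1.5-fold is not given here, so these counts cannot be set against other genes. The single 2-fold call, SNAI2 with exercise alone, was lost (0 members) with FPKM with 0.1 added, where its log2 ratio was 0.72, and with a minimum mean of 100 counts, which leaves this gene out. With that minimum the members' median for the combination against exercise alone was -0.0349. With total-count scaling 10 of 50 member ratios moved by more than counting error, and with FPKM with 0.1 added 15 of 50. Of the ratios to control, those of CDH1, FN1 and TWIST1 after radiation turned sign with total-count scaling, to -0.0094, -0.0638 and -0.0555, as did that of TWIST1 with exercise alone, to -0.0331. With total-count scaling without mitochondrial genes 9 of 50 member ratios moved by more than counting error. Scaling moved the median of all genes by at most 0.0751 on the log2 scale.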
